A study of Mus musculus with 6 samples.

Results

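Rprd1b, a protein that binds the tail of RNA polymerase II, is described here together with 8 genes that read or edit that tail: its relatives Rprd1a and Rprd2, the phosphatases Rpap2, Ssu72 and Ctdp1, the tail-bearing subunit Polr2a, and the kinases Cdk9 and Cdk12. Members were taken by gene name. All 9 were among the 13348 genes of the deposited gene table, and 19 of the 24676 listed transcripts were theirs. Rprd1b was chosen by its gene FPKM, which had one of the clearest differences between the groups, so its values and those of its transcripts are given as a description, with no test. The other 8 were added for their function, with the results of this comparison known.

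Orbitofrontal cortex of C57BL/6 mice at an age of 12 weeks was the tissue. Mice of the control group (3 libraries) had received, by the title of the study, a scrambled shRNA, a short hairpin RNA with no intended target. Mice of the knockdown group (3 libraries) were those whose orbitofrontal cortex was injected with a lentivirus carrying an shRNA against the junction of circHomer1a, a circular RNA of the Homer1 gene. The comparison asks which linear RNAs differ after the circular RNA is targeted. Separate animals for the samples of a group are not stated in the labels, so a p-value covers the spread between these libraries alone, and that spread may be technical. The tables list linear features and no circular RNA, so the knockdown itself was not checked here. The labels do not say what share of the cells the virus reached.

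The largest subunit of RNA polymerase II ends in a long tail, the C-terminal domain (CTD), built of repeats of a short peptide. Kinases and phosphatases add and remove phosphate on serines of these repeats as the polymerase starts, pauses, elongates and terminates, and proteins with a CTD-interacting domain read the marks. In human cells RPRD1A and RPRD1B bind the phosphorylated tail and associate with the phosphatase RPAP2, and RPRD1B, also called CREPT, is known for raising cyclin D1 transcription in tumour cells.

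The results turn on which transcript models of Rprd1b and Rprd2 were used, so the coding stretches that tell the models apart are shown first, from GENCODE M21 transcripts (assembly GRCm38). Rprd1b lies on chromosome 2, from 158028497 to 158132297 on the plus strand (ENSMUSG00000027651.16), and 2 of its 8 annotated transcripts were listed. Rprd1b-201 has 7 exons, 4283 bases and 326 codons. Rprd1b-205 is a partial model of 6 exons, 764 bases and 193 codons whose annotated start is incomplete. The models differ first where the third exon of Rprd1b-201 meets the next one (chr2:158043520-158047938, plus strand, introns removed). Capitals mark 3 bases that Rprd1b-201 keeps and Rprd1b-205 lacks.
Rprd1b-201: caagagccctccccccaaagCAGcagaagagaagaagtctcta
Rprd1b-205: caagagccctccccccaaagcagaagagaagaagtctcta
They differ again near the 3′ end of the reading frame. Rprd1b-201 joins its penultimate exon to the last exon (chr2:158058798-158074989), while Rprd1b-205 joins it to a cassette exon of 96 bases (158070561 to 158070656), inside which its reading frame ends (chr2:158058798-158070611). Capitals mark the bases after the shared exon.
Rprd1b-201: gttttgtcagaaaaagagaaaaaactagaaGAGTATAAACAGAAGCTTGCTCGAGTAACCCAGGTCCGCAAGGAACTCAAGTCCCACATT
Rprd1b-205: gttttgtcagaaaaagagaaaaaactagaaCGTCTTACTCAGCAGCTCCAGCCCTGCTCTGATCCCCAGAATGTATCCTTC

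Rprd2 lies on chromosome 3, from 95760341 to 95818863 on the minus strand (ENSMUSG00000028106.13). Rprd2-201 has 11 exons and 1469 codons. Rprd2-205, with 10 exons and an incomplete start, lacks an exon of 132 bases (95786320 to 95786451), shown in capitals within the stretch chr3:95785077-95787313, minus strand, introns removed.
Rprd2-201: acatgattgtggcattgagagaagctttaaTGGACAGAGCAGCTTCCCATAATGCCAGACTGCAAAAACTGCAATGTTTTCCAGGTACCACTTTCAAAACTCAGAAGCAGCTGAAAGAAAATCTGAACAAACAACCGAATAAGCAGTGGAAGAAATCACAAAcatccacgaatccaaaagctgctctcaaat
Rprd2-205: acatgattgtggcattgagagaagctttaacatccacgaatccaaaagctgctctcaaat

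Levels are in FPKM, fragments scaled by feature length and by library size. A gene value also depends on the exon length annotated for the gene, so comparisons between genes are approximate. In control 1 the Rprd1b gene was at 3.06 FPKM, while Rprd1b-201 alone was at 4.32 FPKM. All 8 markers of cortical excitatory neurons, Slc17a7 among them, were listed and above 0 in every library. The summed markers of each of 11 cell types or neighbouring regions overlapped between the groups, but single libraries stood apart. Control 3 was highest for the excitatory neuron markers (376 FPKM, against 177 to 228 in the other 5 libraries). Control 2 was highest for erythrocyte genes (1665 FPKM, against 320.0 to 598 in the other 5 libraries) and for striatal genes (561 FPKM, against 191 in control 3), and for choroid plexus, of which 1 of 4 markers was listed (12.9 FPKM, against 0.0735 to 2.01 in the other 5 libraries). In bulk tissue, fewer cells of a type and less RNA per cell cannot be told apart.

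Rprd1b was lower in every knockdown library than in any control. Values are given in the order of libraries 1, 2 and 3 of a group. Its gene had control levels of 3.06, 2.86 and 2.58 FPKM and knockdown levels of 0.678, 0.735 and 0.448 FPKM. The lowest control thus lay well above the highest knockdown library. Group means of 2.83 ± 0.242 and 0.620 ± 0.152 FPKM (SD, n = 3 each) gave a ratio of 4.57 between control and knockdown. The log2 fold change, knockdown minus control on the log2(FPKM + 1) scale, was -1.24. Leaving out any 1 library gave between -1.30 and -1.17, which again describes the values by which the gene was chosen. That scale understates the change of a low gene, and a pseudocount of 0.1 gave -2.05. Features averaging 1 FPKM or more entered the fits. Rprd1b and Rprd1b-201 reached that minimum only through their control levels.

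Ratios of Rprd1b to another member, in which the scaling of a library cancels, describe the same Rprd1b values again and are no separate support. Divided by the Rprd1a level, the Rprd1b level was 0.213, 0.231 and 0.226 over the controls, against 0.0455, 0.0513 and 0.0376 over the knockdown libraries. Against Polr2a, the polymerase subunit itself, the ratio was 0.353 ± 0.0254 in control and 0.0711 ± 0.0192 in knockdown libraries. Both ratios separated the groups, which follows from the Rprd1b values because Rprd1a and Polr2a differed little between the groups. The ratio of Rprd1a to Rprd2, relatives without Rprd1b, was 4.15 ± 0.514 and 4.08 ± 0.316 and overlapped.

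**Figure D1:**
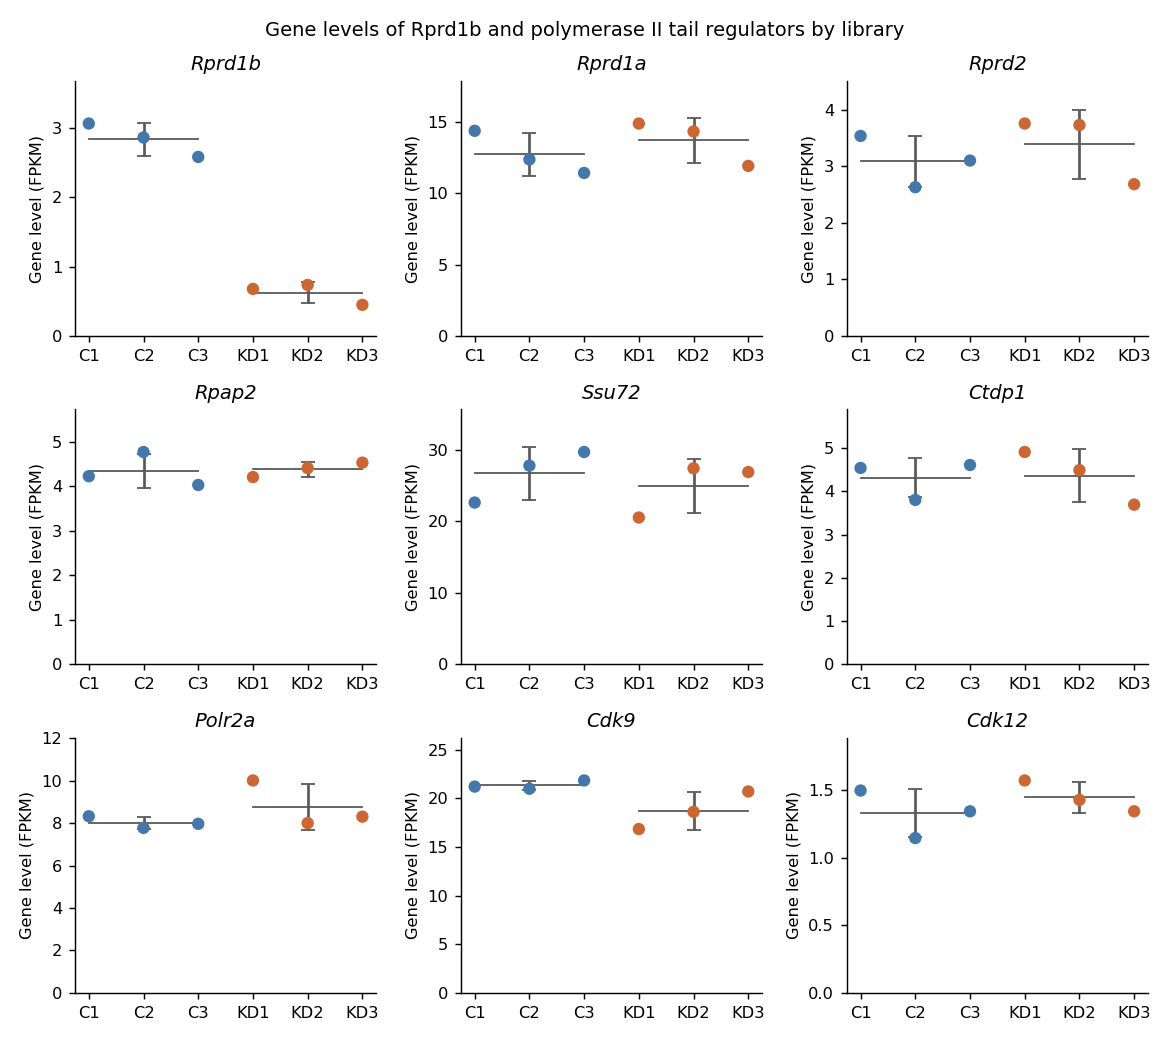
Gene level in FPKM (vertical axis, from 0) of the 9 members in each library (C1 to C3 control, blue; KD1 to KD3 knockdown, orange), with the group mean as a line and the SD as a bar, n = 3 each. Rprd1b lies between 2.58 and 3.06 FPKM over the controls and between 0.448 and 0.735 FPKM in knockdown libraries; of the other panels, the groups separate in Cdk9 alone.

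Among the listed models, Rprd1b-201 carried the difference. Rprd1b-202, which was not listed, is annotated with 7 exons and 325 codons, so Rprd1b-201 is not the only long coding model. Rprd1b-201 had control levels of 4.32, 4.01 and 3.15 FPKM and knockdown levels of 0.557, 0.282 and 0.365 FPKM, with group means of 3.83 ± 0.610 and 0.402 ± 0.141 FPKM. Each knockdown library was far below each control. Rprd1b-205, the model with the cassette exon, had control levels of 0.0156, 0 and 0 FPKM and knockdown levels of 0.563, 0.422 and 0.583 FPKM. Every listed feature had a mean above 0.5 FPKM in at least 1 group. Rprd1b-205 met this through its knockdown mean alone (0.523 FPKM, against 0.0052 FPKM in control), so its higher level under knockdown was a condition of its being listed. At a mean of 0.264 FPKM over the 6 libraries it was too low to enter the transcript fit.

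A gene's value can be divided over its transcripts by weighting each transcript's FPKM by its length and dividing by the gene's union exon length (6499 bases for Rprd1b in GENCODE M21). On that scale Rprd1b-201 made up 2.52 ± 0.402 FPKM of the gene value over the controls and 0.265 ± 0.0929 FPKM over the knockdown libraries. Rprd1b-205 made up 0.0615 ± 0.0103 FPKM in knockdown libraries. The 6 annotated transcripts not listed together made up 0.308 ± 0.170 and 0.294 ± 0.185 FPKM, and there the groups overlapped. Under knockdown the gene mean was 2.21 FPKM lower. For the part of Rprd1b-201, knockdown minus control was -2.26 FPKM, also a fall. Rprd1b-201 held 93.2%, 92.6% and 80.5% of the gene's fragments in the controls, against 54.2%, 25.3% and 53.8% under knockdown. One unlisted model, Rprd1b-203, shares the cassette exon with Rprd1b-205, and 2 others, Rprd1b-202 and Rprd1b-208, share its downstream acceptor, so fragments over these sites are divided by the authors' assignment between models.

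**Figure D2:**
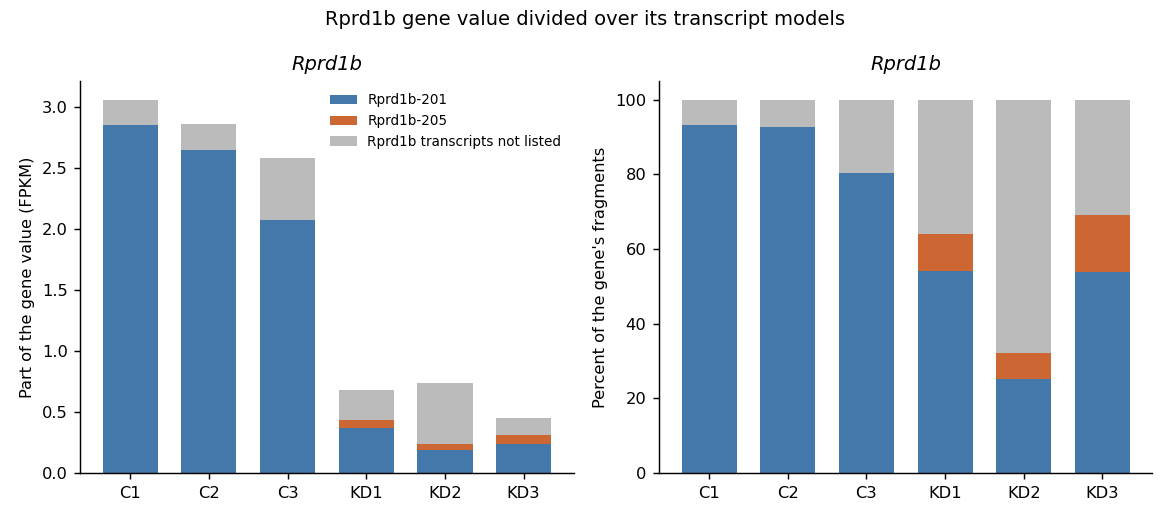
Rprd1b gene value per library divided over Rprd1b-201, Rprd1b-205 and the transcripts not listed, in FPKM (left) and as a percent of the gene's fragments (right). The blue part, Rprd1b-201, goes from 2.52 FPKM on average over the controls to 0.265 FPKM in knockdown libraries, while the grey part averages 0.308 and 0.294 FPKM.

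Rprd1b-207 runs on into Tgm2, a transglutaminase gene on the opposite strand, whose level averaged 3.06 ± 0.0123 FPKM over the controls and 3.19 ± 0.216 FPKM over the knockdown libraries. The library kit preserved strand, but whether fragments were assigned by strand is not given in the sources used here. Tgm2 values overlapped between the groups.

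The other CTD readers were close between the groups. Rprd1a, described as a brake on Wnt signalling in human cells (chromosome 18, minus strand, ENSMUSG00000040446.3), had control levels of 14.4, 12.4 and 11.4 FPKM and knockdown levels of 14.9, 14.3 and 11.9 FPKM. The groups overlapped. Its log2 fold change was 0.10 (limma 95% interval -0.19 to 0.39, adjusted p = 0.949), and its only listed transcript, Rprd1a-201, carried the same values. Rprd2 had control levels of 3.54, 2.63 and 3.10 FPKM and knockdown levels of 3.76, 3.73 and 2.69 FPKM. These overlapped as well, with a log2 fold change of 0.10 (limma 95% interval -0.24 to 0.44, adjusted p = 0.954).

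Although the gene levels of Rprd2 overlapped, its transcript models differed in a single library. Rprd2-201 had control levels of 4.40, 2.83 and 3.94 FPKM and knockdown levels of 4.76, 0.0538 and 3.31 FPKM. Rprd2-205, without the 132-base exon, had control levels of 0, 0.323 and 0 FPKM and knockdown levels of 0, 5.12 and 0 FPKM. Knockdown 2 thus stood alone, with 90.2% of the gene's fragments in Rprd2-205, and control 2 was next with 8.06%. Rprd2-205 was listed through knockdown 2 alone. Rprd2-201 and Rprd2-205 have 7756 and 7498 bases, and fragments they share are divided by the authors' assignment. Whether splicing or assignment differed in knockdown 2 was not tested. Rprd2-202, a shorter model, held between 6.34% and 15.0% in the 6 libraries. Rprd2-201 had a log2 fold change of -0.66 (limma adjusted p = 0.950) and of 0.09 without knockdown 2.

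The 3 phosphatases also overlapped between the groups at gene level. Rpap2 (chromosome 5, 107597373 to 107661838, plus strand, ENSMUSG00000033773.14), a CTD phosphatase that also takes part in polymerase import, had control levels of 4.23, 4.77 and 4.03 FPKM and knockdown levels of 4.21, 4.41 and 4.53 FPKM. Group means were 4.34 ± 0.384 and 4.38 ± 0.163 FPKM, and the log2 fold change was 0.01 (limma 95% interval -0.22 to 0.24, adjusted p = 0.991). Ssu72, a CTD phosphatase of 3′ end processing and the most abundant member, had control levels of 22.6, 27.8 and 29.7 FPKM and knockdown levels of 20.5, 27.4 and 26.9 FPKM. Its replicate-1 library was the lowest of each group, and its log2 fold change was -0.10 (limma 95% interval -0.44 to 0.25, adjusted p = 0.954). Ctdp1, the phosphatase FCP1 that recycles the polymerase, had control levels of 4.54, 3.80 and 4.61 FPKM and knockdown levels of 4.91, 4.49 and 3.69 FPKM. Its highest and its lowest value were both knockdown libraries, and its log2 fold change was 0.01 (limma 95% interval -0.28 to 0.30, adjusted p = 0.994).

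Transcript models of Rpap2 varied far more than the gene, and fragments shared by models are divided by the authors' assignment. Rpap2-201, of 614 codons, had control levels of 3.05, 7.21 and 0 FPKM and knockdown levels of 5.68, 6.49 and 6.53 FPKM. Rpap2-203, which extends an early exon by 14 bases (107601846 to 107601859) and has 537 codons, had control levels of 3.12, 0.0338 and 4.26 FPKM and knockdown levels of 0.115, 0.0125 and 0.627 FPKM. Control 1 was divided between both, with 39.5% of the gene's fragments in Rpap2-201 and 41.4% in Rpap2-203. Control 3 had 59.3% in Rpap2-203 and 37.3% in Rpap2-202, a model too low to be tested that held between 0% and 14.2% in the other 5 libraries. In control 2, as in the knockdown libraries, Rpap2-201 held most fragments. Log2 fold changes were 1.17 for Rpap2-201 (95% interval -0.70 to 3.03) and -1.20 for Rpap2-203 (95% interval -2.84 to 0.43), both with limma adjusted p = 0.950. Rpap2-203 reached the minimum of 1 FPKM only through its control level, and without control 3 its mean was too low to be fitted. For Rpap2-201 the log2 fold change was 0.33 without control 3 and 1.84 without control 2, and for Rpap2-203 it was -1.93 without control 2. Rpap2-206, a partial model of 82 codons too low to be tested, had control levels of 0.261, 0 and 0.387 FPKM and knockdown levels of 1.30, 0.800 and 0.593 FPKM. This model was listed through its knockdown level alone. Glmn, a neighbour on the opposite strand that overlaps the Rpap2 locus, was at 4.40 ± 0.0178 and 4.15 ± 0.277 FPKM.

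**Figure D3:**
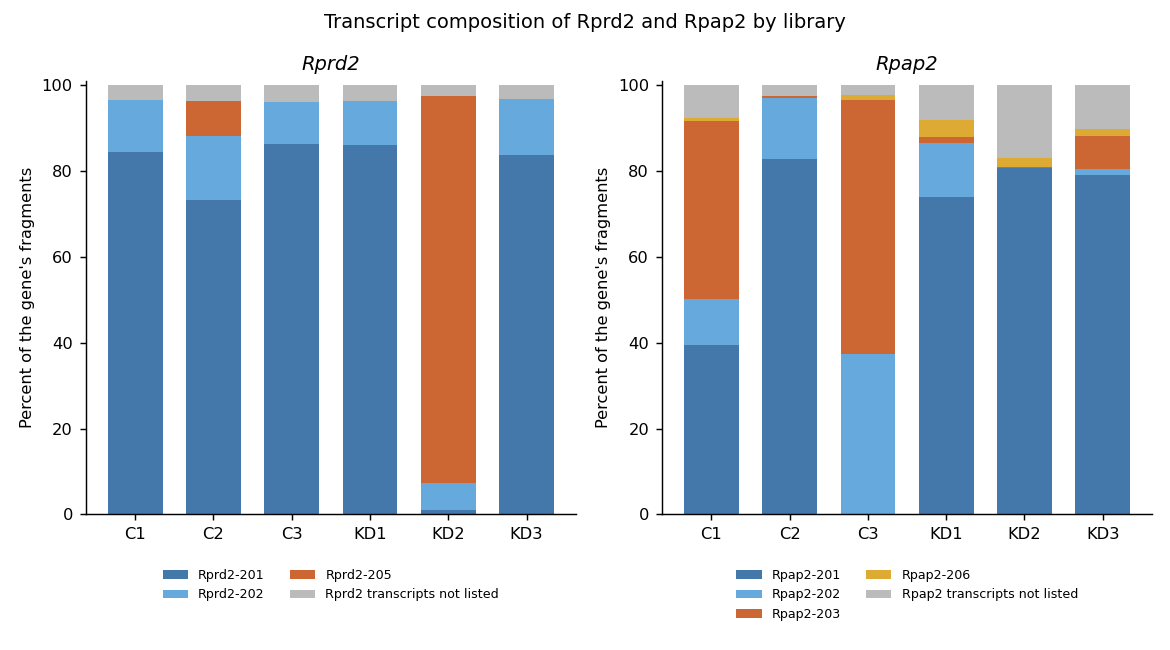
Percent of each gene's fragments (vertical axis) held by each listed transcript of Rprd2 (left) and Rpap2 (right) in each library. Rprd2-205 holds 90.2% in knockdown 2 and at most 8.06% elsewhere; Rpap2-203 holds 41.4% in control 1 and 59.3% in control 3.

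Polr2a, the subunit that carries the tail (chromosome 11, 69733997 to 69758637, minus strand, ENSMUSG00000005198.15), had control levels of 8.33, 7.78 and 7.97 FPKM and knockdown levels of 10.01, 8.004 and 8.31 FPKM. Knockdown 1 was the highest library and the other 5 lay close together. The log2 fold change was 0.11 (limma 95% interval -0.14 to 0.36, adjusted p = 0.948). Polr2a-201, its only listed transcript, held over 99% of the gene's fragments.

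Cdk9, the kinase of P-TEFb that releases paused polymerase, was the only other member whose groups did not overlap. The gene (chromosome 2, 32705784 to 32713076, minus strand, ENSMUSG00000009555.16) had control levels of 21.2, 21.0 and 21.9 FPKM and knockdown levels of 16.9, 18.6 and 20.7 FPKM. The gap between knockdown 3 and control 2 was small beside the range of the knockdown libraries. Group means were 21.4 ± 0.442 and 18.7 ± 1.94 FPKM, with a log2 fold change of -0.18 (limma 95% interval -0.41 to 0.04, adjusted p = 0.948, two-sided exact permutation p = 0.1, the smallest that 3 against 3 allows). Cdk9-201, of 372 codons, had control levels of 30.5, 30.9 and 32.7 FPKM and knockdown levels of 26.3, 29.1 and 28.3 FPKM, without overlap (log2 fold change -0.17, limma adjusted p = 0.950). It held between 51.4% and 58.7% of the gene's fragments, so its separation is no separate support. Between 40.4% and 48.2% were in Cdk9 transcripts not listed. Their part of the gene value was 9.48, 9.29 and 9.50 FPKM over the controls. Under knockdown it was 6.83, 7.53 and 9.99 FPKM, and there the groups overlapped.

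Cdk12, the cyclin K kinase that supports elongation through long genes, was the lowest member in control libraries. It had control levels of 1.498, 1.15 and 1.34 FPKM and knockdown levels of 1.57, 1.43 and 1.34 FPKM, which overlapped (log2 fold change 0.07, limma 95% interval -0.18 to 0.32, adjusted p = 0.954). Neither listed transcript was high enough to be tested. Cdk12-202 was at 0 FPKM in knockdown 1 and between 0.570 and 1.00 FPKM in the other 5 libraries. Cdk12-203 was at 1.23 FPKM in knockdown 1 and between 0.127 and 0.448 FPKM in the others, so it was listed through knockdown 1 alone. Fragments that both models share are divided by the authors' assignment. Whether splicing or assignment differed in knockdown 1 was not tested. Most of the gene's fragments, between 59.9% and 70.9%, were in Cdk12 transcripts not listed.

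Read as an order of levels, the control means ran from Ssu72 (26.7 FPKM) over Cdk9 (21.4), Rprd1a (12.7), Polr2a (8.02), Rpap2 (4.34), Ctdp1 (4.32), Rprd2 (3.09) and Rprd1b (2.83) to Cdk12 (1.33). Among neighbours in that order, Rpap2 overlapped with Ctdp1 and Rprd2 with Rprd1b over the 3 controls. In the knockdown libraries Rprd1b took the lowest place by gene value, under Cdk12 (1.45 FPKM). Among neighbours there, Ssu72 overlapped with Cdk9, Rpap2 with Ctdp1, and Ctdp1 with Rprd2.

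The 8 members other than Rprd1b and 11 of their 17 listed transcripts were tested, and limma called 0 of them, with 0% of 11961 genes and 0.103% of 18476 transcripts called (adjusted p under 0.05). Unadjusted p-values under 0.05 were found in 3.57% of genes and 3.81% of transcripts, and in 0 of the other 8 member genes. The 8 members other than Rprd1b had log2 fold changes between -0.18 and 0.11 with a median of 0.04, beside 0.02 for all genes tested, and adjusted p between 0.948 and 0.994. Of these 8, 1 had non-overlapping groups and was lower in knockdown libraries, where 3.47% of all genes tested were. Among the 11 tested transcripts of these 8 genes 1 was, beside 4.22% of all transcripts tested, and 0 were higher without overlap, beside 4.57%.

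Other genes of the pathway were taken from textbook lists and gave 97 tested genes that are no member. Of these, limma called 0 and 1, Ints6, had an unadjusted p under 0.05. Among the 97, 2 were lower and 1 was higher without overlap between the groups, and the median log2 fold change was 0.01. The background for genes higher without overlap was 4.45%. Counts by list include the members. Counts of signs are descriptions without a test, because the centre of all genes moved with the scaling. The median log2 fold change of all genes was 0.02 as reported. It was 0.07 with libraries scaled to one common sum and -0.003 with median-of-ratios factors. Of the 13 polymerase II subunits, 9 had a negative and 4 a positive fold change, and none passed. Polr2i, a subunit of transcript cleavage and proofreading, was at 17.3 ± 3.00 and 14.7 ± 1.08 FPKM, and Polr2j at 37.8 ± 6.46 and 33.4 ± 2.42 FPKM. Among CTD-interacting-domain proteins, the elongation and termination factors Scaf8 (8.74 ± 0.560 and 9.41 ± 0.716 FPKM) and Pcf11 (6.66 ± 0.703 and 6.29 ± 0.479 FPKM) overlapped between the groups.

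Of the 12 CTD kinases and cyclins, 9 had a positive fold change. Ccnt2, a cyclin partner of Cdk9, was at 7.70 ± 1.21 and 8.72 ± 0.528 FPKM, and Cdk7, the kinase of TFIIH, at 2.86 ± 0.410 and 3.29 ± 0.330 FPKM. Among the 5 genes that hold or recruit P-TEFb, Hexim2, an inhibitor of Cdk9, was at 1.88 ± 0.696 and 1.12 ± 0.797 FPKM and had the most negative fold change of the 97 (-0.49, limma adjusted p = 0.948). Hexim2 control levels were 1.40, 2.68 and 1.56 FPKM and knockdown levels 0.233, 1.38 and 1.77 FPKM. The groups overlapped, and knockdown 1 stood far below the other libraries. Mepce, which caps the 7SK RNA that holds P-TEFb, was at 11.7 ± 0.339 and 11.3 ± 0.731 FPKM. Among phosphatases and their partners, Ppp1r10 was at 8.62 ± 0.293 and 9.43 ± 0.844 FPKM and the small CTD phosphatase Ctdsp1 at 8.07 ± 0.514 and 8.80 ± 1.07 FPKM. The polymerase import GTPases Gpn3 and Gpn1 were at 4.54 ± 0.387 and 5.18 ± 0.702 FPKM and at 3.84 ± 0.203 and 3.55 ± 0.453 FPKM.

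In pausing and elongation, 12 of 22 genes had a positive fold change. Ell2, an elongation factor, was at 2.41 ± 0.536 and 3.06 ± 0.381 FPKM, and Mllt1, a reader in the super elongation complex, at 17.6 ± 0.804 and 16.04 ± 0.707 FPKM without overlap (limma adjusted p = 0.948). In 3′ end processing, 10 of 16 tested genes had a positive fold change, with Cpsf4 at 5.46 ± 0.889 and 4.30 ± 0.676 FPKM. In the Integrator complex, which cuts nascent RNA and carries a phosphatase, 7 of 14 were positive. Ints6 was at 1.07 ± 0.164 and 1.61 ± 0.149 FPKM, with the most positive fold change of the 97 (0.34, limma adjusted p = 0.948), and Ints10 at 5.64 ± 0.828 and 6.01 ± 0.225 FPKM.

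**Figure D4:**
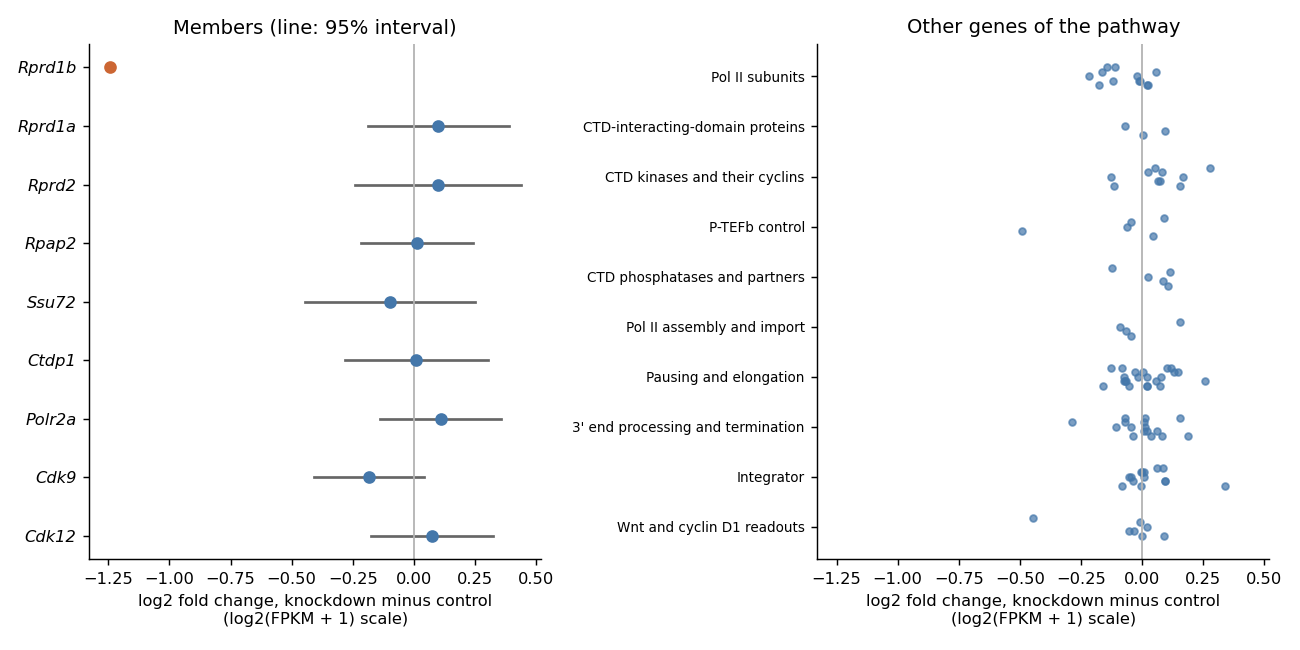
Log2 fold change, knockdown minus control on the log2(FPKM + 1) scale, of the members (left; lines are 95% intervals, none drawn for Rprd1b) and of the other tested genes of each pathway list (right). Rprd1b is at -1.24, and the other 8 members lie between -0.18 and 0.11.

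The 5 tested genes below were nearest to Rprd1b in profile, by the root-mean-square distance between log2(FPKM + 1) values of the 6 libraries after each gene's mean was taken off. They were Phc3 (distance 0.13), B3galnt2 (0.19), Usf3 (0.23), Creb1 (0.26) and Ednrb (0.26), beside a median of 0.65 over all other genes. Because Rprd1b differs between the groups, genes near it do so by construction, and no test is given. Phc3, a Polycomb protein, had control levels of 3.20, 2.10 and 2.45 FPKM and knockdown levels of 0.395, 0.456 and 0.372 FPKM. B3galnt2, a glycosyltransferase acting on dystroglycan, was at 2.98 ± 0.352 and 1.08 ± 0.201 FPKM. The transcription factor Creb1 was at 2.04 ± 0.215 and 0.477 ± 0.282 FPKM, and the endothelin receptor gene Ednrb at 3.22 ± 0.459 and 1.45 ± 0.373 FPKM. Usf3 was at 2.16 ± 0.486 and 0.537 ± 0.461 FPKM. No member was among them: the nearest was Cdk9, at distance 0.56 and place 694 of 11960 genes.

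**Figure D5:**
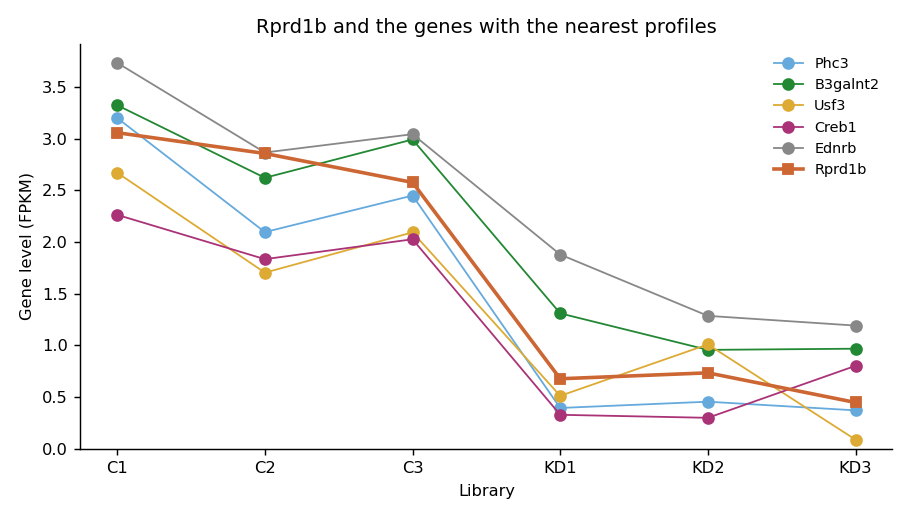
Gene level in FPKM (vertical axis, from 0) of Rprd1b (thick orange line) and of the 5 genes with the nearest profiles in each library. All lie between 1.70 and 3.73 FPKM over the controls and at or below 1.88 FPKM in knockdown libraries; lines join libraries only to help the eye.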

How the data were processed

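The authors deposited FPKM values in a gene table of protein-coding genes and a transcript table, as their headers state. Tools listed by the submitters' processing notes are FastQC, cutadapt, HISAT2 and StringTie, with no versions. Genome build and annotation are not given in the sources used here. Among 13348 listed genes, 11678 had their versioned identifier and exact coordinates in GENCODE M21 (GRCm38), but Rprd1a and Ctdp1 did not match by version, and the fragment shares of Rprd1a are not used. Every listed feature had a mean above 0.5 FPKM in at least 1 group. Read depth is unknown, so no counting interval is given and precision comes from the replicates.

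Log2(FPKM + 1) was fitted in limma 3.58.1 (R 4.3.3) over the 6 libraries, with a variance trend on intensity and a Benjamini-Hochberg threshold of 0.05. Features averaging 1 FPKM or more entered (11961 genes, 18476 transcripts). The code was tested on simulated data. Members and lists were chosen with earlier results of these data known. Named were all members, the 2 genes of each list with the smallest p, and the 5 nearest profiles; 1 gene that this rule names is not reported here. Alternatives covered pseudocount, filter, scaling, variance model, weights, a replicate block, summed transcripts and each library left out.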

Additional observations from a re-analysis of the deposited data

How the results depend on the processing

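Over the alternatives, the Rprd1b log2 fold change stayed between -2.05 and -1.17 and that of Rprd1b-201 between -2.99 and -1.71, the lowest of each with a pseudocount of 0.1, which changes low values most. A minimum of 5 FPKM removed both, and every other feature under it. The count of members called was 1 gene with array weights and 1 transcript without an intensity trend; these were Rprd1b and Rprd1b-201, which were chosen on these values, so neither count is evidence. No other member and none of the other pathway genes was called under any alternative run. The count of all genes called, 0 as reported, was 1 with one common sum, 3 with array weights, 4 with summed transcripts and between 0 and 3 when a library was left out (3 without control 1). The transcript count, 19 as reported, was 8 with a mean of at least 5 FPKM, 44 with no intensity trend and between 11 and 32 with 1 library fewer (11 without knockdown 2, 32 without control 2, 29 without control 3).

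Some fold changes turned sign. Ctdp1 was at -0.012 with median-of-ratios factors and -0.037 with quantile normalization, and Rpap2 at -0.0091 and -0.033. Leaving out a library gave ranges of -0.064 to 0.10 for Ctdp1, -0.029 to 0.070 for Rpap2, -0.21 to 0.032 for Ssu72, -0.21 to 0.062 for Ssu72-201, -0.21 to 0.090 for Ctdp1-201, -0.18 to 0.50 for Cdk9-209 and -1.13 to 0.091 for Rprd2-201. With all 6 libraries, Ssu72-201 was at -0.10, Ctdp1-201 at -0.070 and Cdk9-209 at 0.092. For each turn of sign, the cause was not tested. With no turn of sign, single libraries moved others by over 1.5 times: Polr2a was at 0.021 without knockdown 1, Cdk9 at -0.11 without knockdown 1, Rprd2 at 0.015 without control 2, Rprd1a at 0.031 without control 3 and Cdk12 at 0.016 without control 2.

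With the replicate block 0 transcripts, 0 genes and 0 members were called. Across genes, libraries sharing a replicate number had deviations with correlations of 0.184, -0.127 and -0.0708. These values cannot show whether libraries of the same number were prepared together, and the main fit used no pairing.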

Other observations

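Genes of Wnt signalling and cyclin D1, the processes tied to RPRD1A and RPRD1B in human cells, were also measured. Of 12 such genes 7 were tested, with 3 positive and 4 negative fold changes, a median of -0.01 and 0 called by limma. Ccnd1, which encodes cyclin D1, averaged 7.34 ± 1.78 FPKM over the controls and 7.78 ± 1.15 FPKM under knockdown (log2 fold change 0.09, limma 95% interval -0.33 to 0.50, adjusted p = 0.966). Ctnnb1, which encodes beta-catenin, was at 49.5 ± 10.3 and 36.7 ± 12.4 FPKM with overlapping groups (limma adjusted p = 0.948).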
